A study of Homo sapiens with 20 samples.

Results

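The genes described are 8 members of the sterol synthesis program: *SREBF2* and *INSIG1*, which regulate it, and *HMGCS1*, *IDI1*, *FDFT1*, *SQLE*, *LSS* and *DHCR7*, which encode enzymes of the pathway. They were chosen by symbol, through their Ensembl identifiers, from the 58233 identifiers counted in every library, and each matched a single row. All 8 passed the filter on low counts in every comparison. RNA-seq was performed on A549, HCC366, NCI-H1650 and NCI-H196, established human lung cancer cell lines that received a lentivirus carrying Cas9 and an sgRNA against *ADAR* (*ADAR* KO) or against *GFP* (GFP control). There were 20 libraries in 10 groups, with 2 libraries per group that differ in the sgRNA (sg1 and sg2). A549 cells of both kinds were given vehicle (sterile water) or 10 ng/mL IFN-β, a type I interferon, for 24 h. HCC366, NCI-H1650 and NCI-H196, the ADAR1-dependent cell lines, had no added cytokine, and their RNA was isolated 5 days after transduction. All groups, the controls included, thus carried the lentivirus, Cas9 and an sgRNA. The cultures were analyzed in bulk, so fewer cells of a type and less RNA per cell cannot be told apart. The 2 libraries of a group are different sgRNAs rather than repeat cultures, so p-values measure the spread between sgRNAs. In the joint fit of the ADAR1-dependent cell lines, that spread also holds differences of the *ADAR* KO effect between lines.

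Cells make cholesterol from acetyl-CoA through the mevalonate pathway. *SREBF2* encodes SREBP-2, a transcription factor held in the endoplasmic reticulum while sterols are plentiful and released by cleavage when they fall, after which it turns on the genes of the pathway. *INSIG1* encodes the retention protein that keeps SREBP in the endoplasmic reticulum, and is itself a target of SREBP. Among the enzymes, *HMGCS1* makes HMG-CoA at the start of the pathway, *IDI1* isomerizes its isoprene unit, *FDFT1* makes squalene, *SQLE* oxidizes squalene, *LSS* closes the sterol rings and *DHCR7* performs a last reduction to cholesterol. Interferon signaling is known to restrain this program in immune cells, in part through oxysterols made by *CH25H*. ADAR1, the product of *ADAR*, edits adenosine in double-stranded RNA and limits the sensing of that RNA.

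The start regions of 4 members are printed because these genes passed the test in at least 1 comparison and represent both sides of the program, its regulators and its enzymes. The sequences are RefSeq windows on GRCh38.p14, from 250 bases before to 50 bases after an annotated gene start. Capitals mark the sterol regulatory element TCACNCCAC and the CCAAT box CCAAT, searched on both strands, so that a box on the other strand reads ATTGG. *SREBF2* lies on the plus strand at chr22:41832855-41833154, *INSIG1* on the plus strand at chr7:155297628-155297927, *HMGCS1* on the minus strand at chr5:43313363-43313662 and *LSS* on the minus strand at chr21:46228725-46229024.
SREBF2: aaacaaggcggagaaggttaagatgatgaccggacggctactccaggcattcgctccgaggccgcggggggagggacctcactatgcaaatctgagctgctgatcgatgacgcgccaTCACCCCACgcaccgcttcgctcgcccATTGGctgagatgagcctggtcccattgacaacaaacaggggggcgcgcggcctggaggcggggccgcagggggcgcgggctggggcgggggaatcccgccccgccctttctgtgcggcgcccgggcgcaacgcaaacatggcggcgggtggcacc
INSIG1: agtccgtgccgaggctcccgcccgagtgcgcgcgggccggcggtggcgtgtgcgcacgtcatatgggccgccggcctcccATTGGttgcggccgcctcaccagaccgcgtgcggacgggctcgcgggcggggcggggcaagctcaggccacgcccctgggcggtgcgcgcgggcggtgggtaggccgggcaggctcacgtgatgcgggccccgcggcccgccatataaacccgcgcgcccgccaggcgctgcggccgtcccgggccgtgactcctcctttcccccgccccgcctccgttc
HMGCS1: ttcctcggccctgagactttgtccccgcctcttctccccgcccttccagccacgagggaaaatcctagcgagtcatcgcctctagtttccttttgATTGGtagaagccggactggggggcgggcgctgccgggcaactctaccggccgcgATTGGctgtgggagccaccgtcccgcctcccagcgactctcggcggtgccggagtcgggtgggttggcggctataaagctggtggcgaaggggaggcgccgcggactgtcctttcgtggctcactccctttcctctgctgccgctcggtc
LSS: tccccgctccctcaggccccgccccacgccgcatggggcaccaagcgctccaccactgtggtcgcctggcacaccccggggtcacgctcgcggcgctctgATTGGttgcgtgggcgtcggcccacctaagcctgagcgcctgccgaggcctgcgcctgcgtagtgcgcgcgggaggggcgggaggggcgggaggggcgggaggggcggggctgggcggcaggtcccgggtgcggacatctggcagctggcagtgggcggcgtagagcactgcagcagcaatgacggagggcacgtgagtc

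The RefSeq table held 10 windows for 6 of the 8 members (*SREBF2*, *INSIG1*, *HMGCS1*, *IDI1*, *LSS* and *DHCR7*). No window was read for *FDFT1* and *SQLE*. The sterol regulatory element in these exact letters was found in 1 of the 10 windows, that of *SREBF2*, against 1.13% of all 35116 windows of this length. The CCAAT box was found in 7 of the 10 windows and in all 6 genes, against 34.6% of all windows. A GC box (GGGCGG) was in 9 of the 10, against 44.95% of all windows. The interferon-type letters GAAANNGAA were in 0 of the 10, against 8.11% of all windows. These matches describe the letters of the windows and not occupancy by a factor.

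On GRCh37, the build of the counts, *SREBF2* (ENSG00000198911) lies on the plus strand of chromosome 22 from 42229109 to 42303310, and its canonical transcript has 19 exons. *INSIG1* (ENSG00000186480) is on the plus strand of chromosome 7 from 155089486 to 155101945 with 6 exons, and *HMGCS1* (ENSG00000112972) is on the minus strand of chromosome 5 from 43287572 to 43313614 with 11 exons. *IDI1* (ENSG00000067064) occupies 1085092 to 1095059 of chromosome 10, minus strand, with 5 exons. *LSS* (ENSG00000160285) occupies 47608055 to 47648738 of chromosome 21, minus strand, with 22 exons, and *DHCR7* (ENSG00000172893) occupies 71139239 to 71163914 of chromosome 11, minus strand, with 9 exons. The identifiers of the other two are ENSG00000079459 for *FDFT1* and ENSG00000104549 for *SQLE*. An annotated antisense gene overlaps *SREBF2*, *HMGCS1*, *IDI1*, *FDFT1*, *LSS* and *DHCR7*, and none overlaps *INSIG1* or *SQLE*. The library kit was directional, but the strand setting of the counting is not given in the sources used here, so reads of a gene and of its antisense partner may not be separated in these 6 genes. The GC content of the canonical transcript was 37.9% for *IDI1* and 39.0% for *HMGCS1*, between 44.8% and 46.5% for *INSIG1*, *FDFT1* and *SQLE*, and between 58.0% and 58.1% for *SREBF2*, *DHCR7* and *LSS*.

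Reads counted on genes numbered 62679 to 19520189 per library. The smallest of these was NCI-H196 GFP sg2, in which a single read corresponds to 14.7 CPM (read counts relative to an effective library size, set by TMM within each line). In HCC366 ADAR sg2, 85.6% of the read pairs tallied by HTSeq were set aside as aligned to more than 1 place, against 22.5% to 59.1% in the other libraries. There, the log2 ratio of a gene to its mean in the other libraries of the line was correlated with its GC content across 9869 genes (r = 0.73, a description). *ADAR* itself was lower after *ADAR* KO in vehicle-treated A549 (log2 fold change −1.08), NCI-H1650 (−1.29) and NCI-H196 (−0.41). In NCI-H196 it was also lower without GFP sg2 (−0.39), but did not pass in DESeq2, under the replicate block, with GC content and length offsets, in the fit of all 20 libraries or without either *ADAR* KO library. Its change in HCC366 (−0.84, adjusted p = 0.21 from edgeR) did not pass, nor did it in DESeq2, without the filter or under the replicate block. It passed with GC content and length offsets (−1.01, adjusted p = 0.019 from edgeR), also with the replicate block added. In the fit of all 20 libraries it passed as well (−0.88, adjusted p = 0.0023 from edgeR). It was −0.98 without ADAR sg1 and −0.72 without ADAR sg2, each with a single *ADAR* KO library. *IFIT1*, an interferon-stimulated gene, rose by 9.63 on the log2 scale with IFN-β in GFP control A549, as did *MX1* (10.9) and *ISG15* (7.19). Leukocyte markers were at or under 3.05 summed CPM in all lines. The 4 epithelial genes summed to 2528 to 4491 CPM in A549, where *EPCAM* alone of them was under 1 CPM. In NCI-H196 they summed to 58.6 to 72.2 CPM, with *EPCAM* and *CDH1* under 1 CPM. There, 2 mesenchymal genes summed to 2008 to 2772 CPM and 3 fibroblast genes to 4483 to 6298 CPM. Of 3 neuroendocrine genes, *NEUROD1* was under 1 CPM in every line, and their sum was at most 28.0 CPM, in NCI-H1650.

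In GFP control cells without IFN-β, the 8 genes were compared in CPM per kilobase of merged exons, normalized separately in each line. On this scale they lay between 7.41 and 17.7 in A549 and spread more widely in the other lines. The order of the genes rests on that length, which exceeds the canonical transcript unevenly. Merged exons and canonical transcript span 5080 and 2035 bases for *FDFT1*, 6878 and 2627 for *DHCR7*, and 4305 and 2962 for *SQLE*. The order by canonical length was not computed. In A549, *SQLE* was highest at 17.7 ± 0.25 (SD, n = 2 sgRNAs), followed by *FDFT1* at 13.6 ± 0.68 and *DHCR7* at 11.2 ± 0.97. The remaining 5 genes, from *SREBF2* at 8.47 ± 0.16 down to *LSS* at 7.41 ± 0.87, overlapped with their neighbors in the order. *SQLE* also led in HCC366 (22.0 ± 1.19), where its range overlapped that of *SREBF2* (21.2 ± 1.14), and in NCI-H1650 (29.0 ± 2.01). The low end differed between lines. In HCC366 *HMGCS1* (5.74 ± 0.51) and *IDI1* (4.13 ± 0.28) were the lowest, whereas in NCI-H1650 *HMGCS1* was second from the top (27.3 ± 0.29) and *DHCR7* (6.41 ± 0.95) was lowest, overlapping with *LSS*. In the single NCI-H196 control library with usable depth, GFP sg1, *SQLE* stood at 18.03 and *DHCR7* at 2.14.

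The first comparison addressed how control A549 cells responded to IFN-β. *HMGCS1* rose, and no other member passed the test. Its expression was 50.7 and 54.4 CPM with vehicle (sg1 and sg2) and 66.7 and 70.4 CPM with IFN-β. Both treated libraries lay above both vehicle libraries, and the log2 fold change was 0.38 (SE 0.12, adjusted p = 0.047 from the quasi-likelihood test of edgeR, with Benjamini-Hochberg adjustment over all genes tested). This call lies close to the threshold of 0.05. It was lost in DESeq2 (adjusted p = 0.064), and in the fit with a block for each sgRNA, in which the vehicle and IFN-β libraries that carry the same sgRNA are paired (adjusted p = 0.066 from edgeR). It was also lost when GFP sg1 vehicle (adjusted p = 0.41 from edgeR), GFP sg2 vehicle (0.19) or GFP sg2 with IFN-β (0.13) was left out. Across the 15449 genes tested, 4.39% were called higher and 1.31% lower, beside 1 of 8 members higher and 0 of 8 lower.

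*INSIG1* was at 28.8 CPM in both vehicle libraries and at 39.1 and 32.9 CPM with IFN-β. Both treated libraries were higher, but the change of 0.32 (SE 0.14, adjusted p = 0.26 from edgeR) did not pass. *DHCR7* was at 72.2 and 81.6 CPM with vehicle and at 61.4 and 64.5 CPM with IFN-β, without overlap, and its change of −0.29 (SE 0.12, adjusted p = 0.20 from edgeR) did not pass either. *LSS* was at 58.1 and 49.2 CPM with vehicle and at 36.2 CPM in sg1 and 51.5 CPM in sg2 with IFN-β, so that the sgRNAs moved in opposite directions. Its change of −0.27 (adjusted p = 0.42 from edgeR) did not pass, while without GFP sg2 with IFN-β it did (−0.55, adjusted p = 0.040 from edgeR). In GFP sg2 with IFN-β, genes above 55% GC were at a median log2 deviation of 0.18 from the other A549 libraries. Those under 42% GC were at −0.19, and *LSS* has a GC content of 58.1%. The changes of *SREBF2* (−0.08), *IDI1* (−0.02), *FDFT1* (−0.07) and *SQLE* (−0.13) did not pass (adjusted p from 0.66 to 0.98 in edgeR). The groups did not overlap for 5 of the 8 members, 2 higher and 3 lower, where 21.7% of all genes tested lay higher without overlap and 20.3% lower. The median of the 8 log2 fold changes was −0.07, beside 0.00 over all genes tested.

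**Figure D1:**
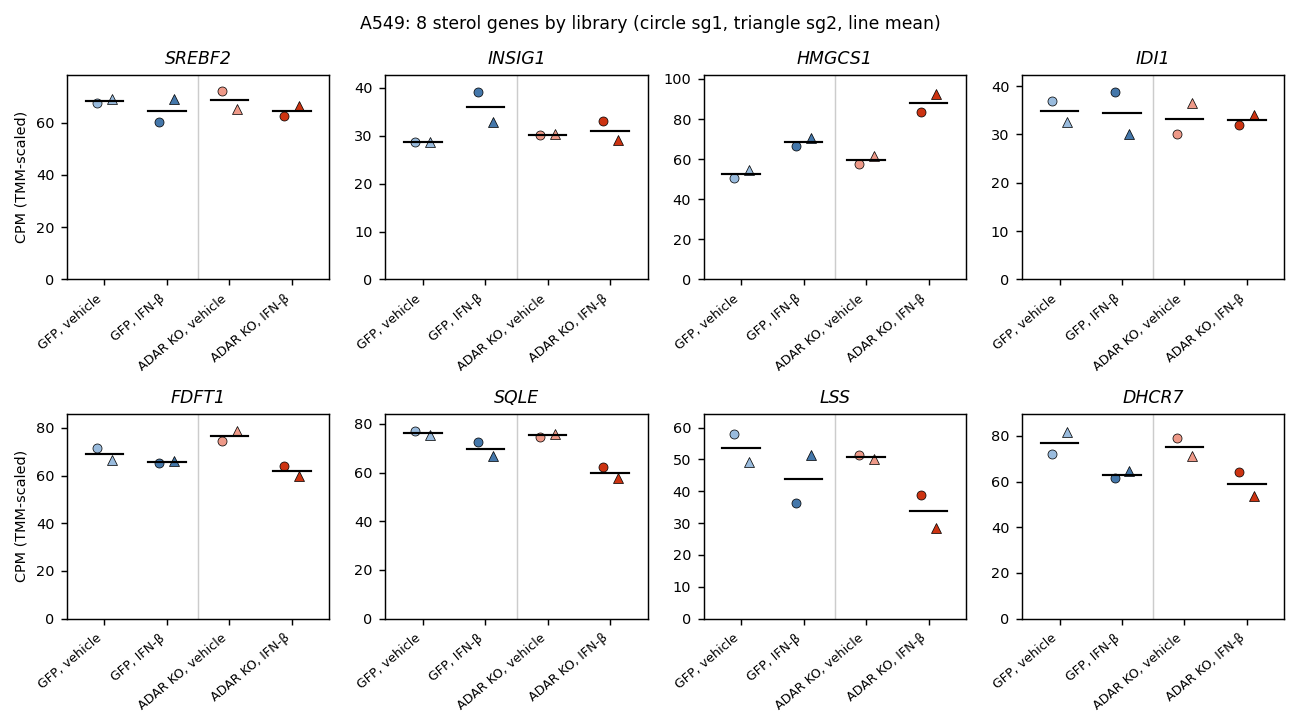
Expression of the 8 genes in each of the 8 A549 libraries, in TMM-scaled CPM on a linear axis from 0 (circles sg1, triangles sg2, line the mean of the 2 libraries). *HMGCS1* is higher with IFN-β in both kinds of cell and reaches 83.8 and 92.6 CPM in ADAR KO cells, whereas *FDFT1*, *SQLE*, *LSS* and *DHCR7* have their lowest mean in ADAR KO cells with IFN-β.

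The same treatment of *ADAR* KO A549 cells gave changes in 5 of the 8 genes, 1 higher and 4 lower, where 15.5% of all genes tested were called higher and 9.04% lower. *HMGCS1* went from 57.7 and 61.4 CPM with vehicle to 83.8 and 92.6 CPM with IFN-β. Its log2 fold change was 0.57 (SE 0.12, adjusted p = 0.00039 from edgeR), and the groups were well separated. The later enzymes moved in the opposite direction. *LSS* fell from 51.3 and 50.2 CPM to 38.9 and 28.5 CPM (log2 fold change −0.61, SE 0.16, adjusted p = 0.0045 from edgeR). *DHCR7* fell from 79.1 and 71.3 CPM to 64.1 and 53.5 CPM (−0.36, SE 0.12, adjusted p = 0.028 from edgeR).

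The squalene enzymes fell by smaller amounts. *SQLE* went from 74.5 and 76.0 CPM to 62.2 and 57.7 CPM, with a change of −0.33 (SE 0.11, adjusted p = 0.031 from edgeR). *FDFT1* went from 74.6 and 78.6 CPM to 63.9 and 59.8 CPM, with a change of −0.31 (SE 0.11, adjusted p = 0.042 from edgeR). With the block for each sgRNA neither passed (adjusted p of 0.051 for *SQLE* and 0.070 for *FDFT1* from edgeR), while *LSS*, *DHCR7* and *HMGCS1* did. Over the 12 alternatives the *SQLE* call was kept in 6 and the *FDFT1* call in 4. In each of these 4 enzymes both IFN-β libraries lay under both vehicle libraries, with sg2 the lower of the pair. Such separation was frequent, with 30.9% of all genes tested lower and 33.3% higher without overlap. *IDI1* was at 30.1 and 36.4 against 32.1 and 34.1 CPM (−0.01, SE 0.15), *INSIG1* at 30.1 and 30.3 against 33.1 and 29.1 CPM (0.03, SE 0.15) and *SREBF2* at 72.0 and 65.2 against 62.6 and 66.3 CPM (−0.09, SE 0.12), and the groups overlapped in all 3. Leaving out the deepest library, ADAR sg2 with IFN-β, left 1 member past the threshold (*HMGCS1*), leaving out either vehicle library left 2, and leaving out ADAR sg1 with IFN-β left 4. In the sg2 IFN-β library, genes of high GC content were low (median log2 deviation from the other A549 libraries −0.14 over genes above 55% GC, and 0.17 under 42%). In a fit with offsets for GC content and length, the same 5 members passed.

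The wider pathway was examined next. Of 19 sterol synthesis enzymes examined, namely the 6 member enzymes and 13 others, 9 were lower and 2 higher with IFN-β in *ADAR* KO A549, and 8 did not pass, where 9.04% of all genes tested were lower and 15.5% higher. Their median log2 fold change was −0.33, beside 0.00 over all genes tested, and 17 of the 19 values were negative. In GFP control cells 0 of the 19 were lower and 1 was higher, against 1.31% and 4.39% of all genes, and the median was −0.09. The sg2 libraries with IFN-β had opposite GC trends, with r = 0.40 in GFP control and −0.23 in *ADAR* KO cells. For GFP control cells the 19 enzymes were not counted with GC content and length offsets. The 13 others were listed by their place in the pathway, with earlier results of these data known. The list genes named for IFN-β in *ADAR* KO cells, here and further on, were picked after their values were seen. The falls beyond the members were in *CYP51A1* (−0.88), which removes the methyl group of lanosterol, *PMVK* (−0.56) and *FDPS* (−0.50), which act in the mevalonate part and the making of farnesyl diphosphate, *EBP* (−0.50), the sterol isomerase, and *LBR* (−0.40), a reductase that also anchors chromatin at the nuclear envelope. *HSD17B7*, a ketoreductase of the pathway, was higher (0.83), though reads of its near-identical copies may be counted with it. Without ADAR sg2 with IFN-β, 1 of the 19 enzymes was lower, without either vehicle library 3 were lower, and with GC content and length offsets 8 were lower. Of 12 alternatives, the fall of *EBP* was kept in 11, that of *CYP51A1* in 10, of *LBR* in 9, of *FDPS* in 7 and of *PMVK* in 6. The rise of *HSD17B7* was kept in 8. The *PMVK* call was lost with GC content and length offsets.

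**Figure D2:**
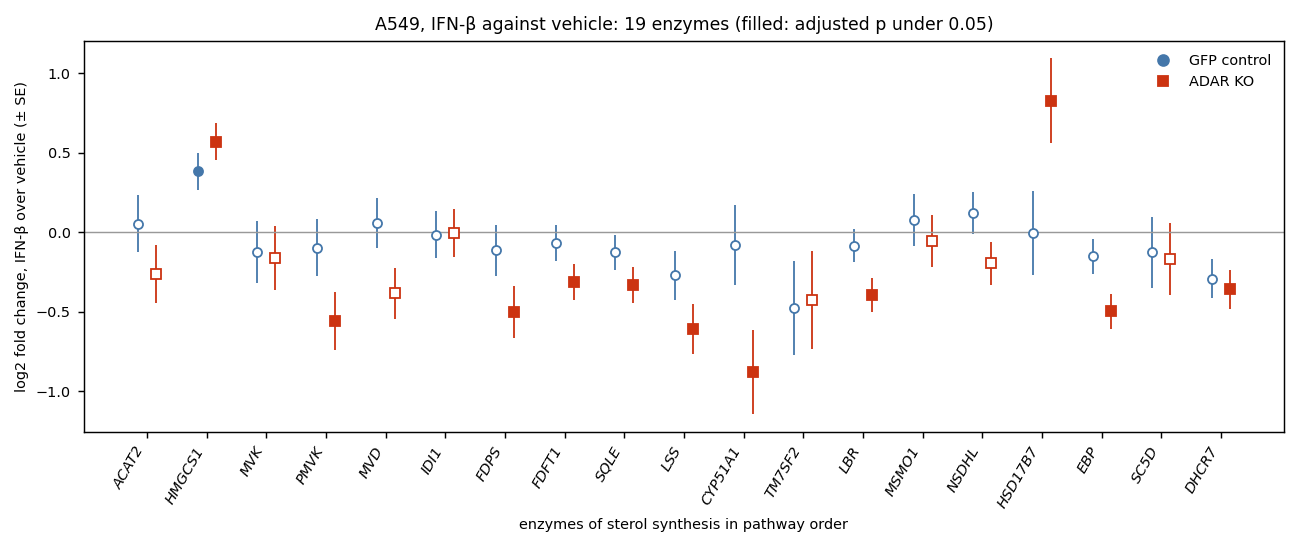
Log2 fold change of IFN-β over vehicle with its SE for 19 sterol synthesis enzymes in pathway order, in GFP control (blue circles) and *ADAR* KO (red squares) A549 cells, with filled symbols past adjusted p 0.05. In *ADAR* KO cells 9 enzymes are filled below 0 and 2 above, *HMGCS1* and *HSD17B7*, whereas *HMGCS1* alone is filled in GFP control cells.

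A pass in one kind of cell and not in the other does not show that they differ, so the interaction of *ADAR* KO and IFN-β was tested directly. It passed for 0 of the 8 genes in edgeR, with 0 at an unadjusted p under 0.05 and 0 in DESeq2. Over all genes tested, 4.07% had a positive and 0.977% a negative interaction. The estimates ran from −0.34 for *LSS* (SE 0.22, adjusted p = 0.44 from edgeR) to 0.19 for *HMGCS1* (SE 0.16, adjusted p = 0.60 from edgeR), with a median of −0.14. The SEs were 0.16 to 0.22 on the log2 scale, so that differences of the size seen in the single comparisons were near the limit of what these 8 libraries resolve. Among the 13 other enzymes the interaction passed for 0 in edgeR and for 0 in DESeq2. In edgeR 4 of them had an unadjusted p under 0.05 (*CYP51A1*, *LBR* and *EBP* negative, *HSD17B7* positive, named after their values were seen). The same held in edgeR for 2881 of all 15449 genes tested. In DESeq2, 1 of the 13 other enzymes had an unadjusted p under 0.05.

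The effect of *ADAR* KO on the members was then examined within A549. With vehicle, 0 of 8 passed in edgeR and 0 in DESeq2, and only 0.0324% of all genes were called higher and 0.0906% lower. An unadjusted p under 0.05 was found for 0 of the 8 members and for 642 of all 15449 genes. The changes of the members ran from −0.07 (*LSS*) to 0.18 (*HMGCS1*), with a median of −0.01. With IFN-β, the background was far larger, at 10.8% higher and 6.19% lower, and *HMGCS1* was the single member called. It stood at 66.7 and 70.4 CPM in GFP control and at 83.8 and 92.6 CPM in *ADAR* KO cells (log2 fold change 0.37, SE 0.11, adjusted p = 0.023 from edgeR). With GC content and length offsets this value fell to 0.16 (adjusted p = 0.28 from edgeR), and in its place *SQLE* was called lower (−0.30, adjusted p = 0.022 from edgeR). The call was also lost without ADAR sg2 with IFN-β (0.29, adjusted p = 0.30 from edgeR). *HMGCS1* has a GC content of 39.0%, and low-GC genes were high in that library and low in GFP sg2 with IFN-β (median log2 deviations 0.17 and −0.19).

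*LSS* was at 36.2 and 51.5 CPM in IFN-β-treated GFP control and at 38.9 and 28.5 CPM in IFN-β-treated *ADAR* KO cells. These overlapped, and the difference of −0.41 (SE 0.16, adjusted p = 0.069 from edgeR) did not pass. It passed without GFP sg1 with IFN-β (−0.63, adjusted p = 0.0027 from edgeR) and without ADAR sg1 with IFN-β (−0.63, adjusted p = 0.012 from edgeR). *SREBF2* lay between 60.1 and 72.0 CPM in all 8 A549 libraries, with a difference of 0.00 (SE 0.12) between *ADAR* KO and GFP control under IFN-β. Of the other 13 enzymes, *EBP* (−0.35) was lower in *ADAR* KO cells under IFN-β, and 0 were higher. The comparisons within A549 share libraries, so the values of a gene in them are not independent of each other.

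**Figure D3:**
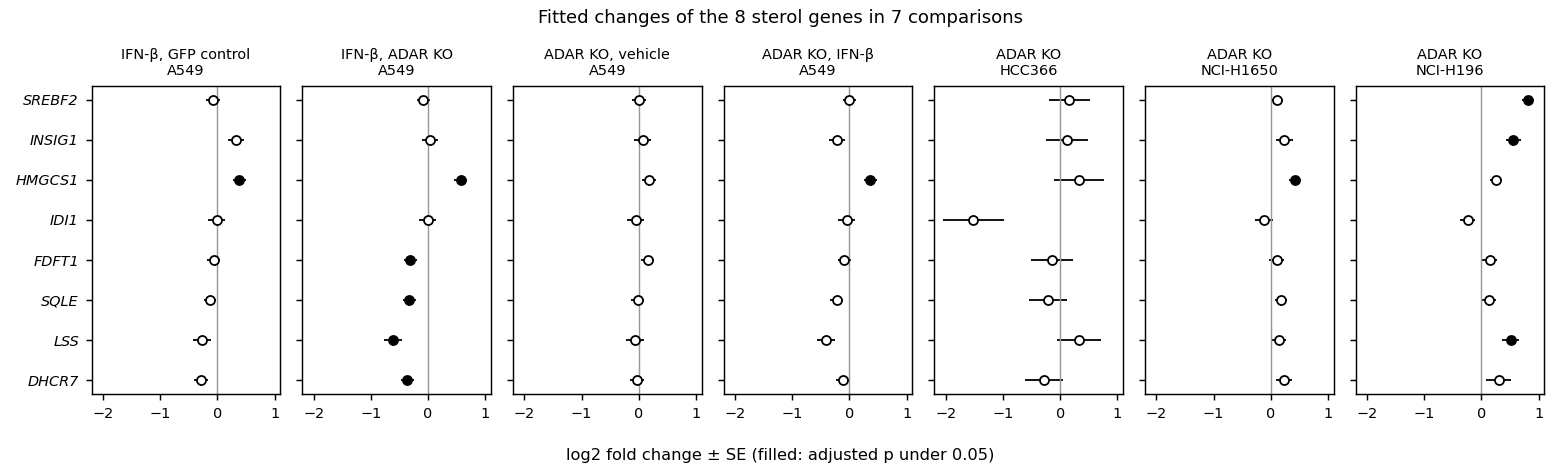
Fitted log2 fold changes with their SE for the 8 genes in 7 comparisons (columns), filled where the adjusted p is under 0.05. *HMGCS1* is above 0 in all 7 columns and filled in 4, *IDI1* in HCC366 (−1.52) lies farthest from 0 with the widest error, and the filled points of *SREBF2*, *INSIG1* and *LSS* above 0 are in NCI-H196.

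In the ADAR1-dependent cell lines the question was whether *ADAR* KO alone altered these genes. NCI-H1650 had 4 libraries of even depth. In its ADAR sg1 library, low-GC genes were at a median log2 deviation of −0.16 from the other libraries of the line and high-GC genes at 0.14 (r = 0.56 with GC content). In NCI-H1650 *HMGCS1* was higher in the *ADAR* KO libraries, at 224 and 261 CPM, than in GFP control, at 182 and 179.6 CPM. The log2 fold change was 0.42 (SE 0.10, adjusted p = 0.0053 from edgeR), which was lost without either GFP library or without ADAR sg2 (adjusted p of 0.081 to 0.15 from edgeR). It was the single member called, against 6.18% of genes higher and 2.42% lower in that line. The remaining members changed by −0.11 (*IDI1*) to 0.24 (*INSIG1*). *SQLE* was at 119 and 131 CPM in GFP control and 140.0 and 143 CPM in *ADAR* KO, *FDFT1* at 56.7 and 53.7 against 59.4 and 59.4 CPM and *DHCR7* at 39.5 and 48.7 against 52.2 and 50.6 CPM. All 3 were higher in both *ADAR* KO libraries, by 0.18, 0.10 and 0.22, and did not pass. With *HMGCS1* this makes 4 of 8 members whose groups did not overlap, all higher, where 26.2% of all genes lay higher and 24.3% lower without overlap. The median of the 8 log2 fold changes was 0.16, beside 0.01 over all genes tested. Among the 13 other enzymes, *LBR* was lower (−0.43) and 0 were higher.

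In NCI-H196, 3 of 8 members were higher and 0 lower, where 10.3% of genes were called higher and 7.5% lower. *SREBF2* was at 106 and 117 CPM in GFP control and at 193 and 185 CPM in *ADAR* KO, a log2 fold change of 0.81 (SE 0.11, adjusted p = 4.4e-12 from edgeR). *INSIG1* was at 58.5 CPM in GFP sg1 and had 0 reads in GFP sg2, against 80.2 and 85.7 CPM (0.55, SE 0.13, adjusted p = 0.00043 from edgeR). *LSS* was at 42.8 and 73.3 CPM in GFP control and at 52.8 and 64.0 CPM in *ADAR* KO, so that its groups overlapped although the fit called it higher (0.51, SE 0.15, adjusted p = 0.0050 from edgeR). GFP sg2 holds only 5 reads of *LSS*, 8 of *SREBF2* and 3 of *HMGCS1*. Without it, the log2 fold changes were 0.80, 0.52 and 0.52 for *SREBF2*, *INSIG1* and *LSS*, and all 3 passed, but the control was then a single library whose spread is assumed to equal that of the *ADAR* KO pair.

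Other settings removed these 3 calls. Without GFP sg1, ADAR sg1 or ADAR sg2, 0 of the 8 members passed, and DESeq2 called 0, with an adjusted p for 1 of the 8, *SREBF2* (0.97). The replicate block by sgRNA number also left 0, with adjusted p of 0.066 for *SREBF2*, 0.52 for *INSIG1* and 0.98 for *LSS*. *HMGCS1* was at 96.6 CPM in GFP sg1, 43.98 in GFP sg2 and 99.5 and 118 CPM in *ADAR* KO (0.25, SE 0.11, adjusted p = 0.094 from edgeR), which did not pass. *DHCR7*, at 14.7 CPM in GFP sg1 and 13.2 and 18.7 CPM in *ADAR* KO, had 0 reads in GFP sg2, where a count of 0 allows a level of up to 43.98 CPM (3 reads, counting error only). *IDI1* was at 67.1 and 43.98 against 53.8 and 57.0 CPM (−0.24, SE 0.14). The median over the 8 members was 0.28 on the log2 scale, beside −0.0039 over all genes tested. Among the 13 other enzymes *LBR* was lower (−0.50) and 0 were higher, with and without GFP sg2, and 0 passed in DESeq2 or when any other of the 4 libraries was left out.

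**Figure D4:**
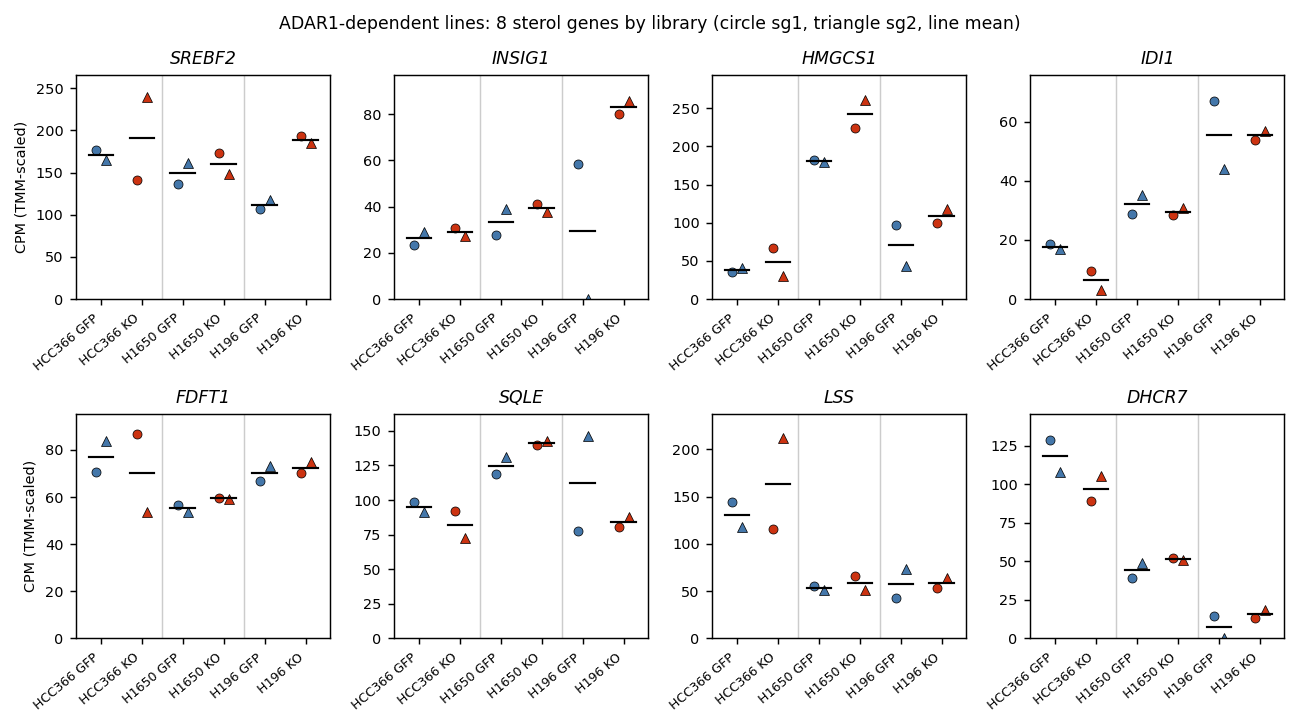
Expression of the 8 genes in the 12 libraries of the ADAR1-dependent cell lines, in TMM-scaled CPM on linear axes from 0 (blue GFP control, red *ADAR* KO, circles sg1, triangles sg2, line the mean of the 2 libraries). *HMGCS1* in NCI-H1650 and *SREBF2* in NCI-H196 are higher in both *ADAR* KO libraries, while in HCC366 the triangle of *ADAR* KO stands apart from the circle in *SREBF2*, *HMGCS1*, *FDFT1* and *LSS*; the NCI-H196 GFP triangle rests on 0 to 10 reads a gene and enters the mean line.

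In HCC366, 0 of 8 members passed in edgeR and 0 in DESeq2, where 1.2% of genes were called higher and 0.0449% lower. An unadjusted p under 0.05 in edgeR was found for 1 member and for 2014 of all 11135 genes. The 2 *ADAR* KO libraries gave different levels. *HMGCS1* was at 35.6 and 40.4 CPM in GFP control, at 66.5 CPM in ADAR sg1 and at 30.4 CPM in ADAR sg2. *LSS* was at 144 and 118 CPM in GFP control, 115 CPM in ADAR sg1 and 211 CPM in ADAR sg2. *SREBF2* was at 177 and 164 CPM in GFP control, 142 CPM in ADAR sg1 and 239.9 CPM in ADAR sg2. For each of these genes the sgRNAs pointed in opposite directions, and the median over the 8 members was −0.01. Without ADAR sg2, *HMGCS1* was the single member called (0.80, adjusted p = 0.035 from edgeR), and without ADAR sg1, 4 others were, *LSS* and *SREBF2* higher and *IDI1* and *FDFT1* lower. Each of these fits has a single *ADAR* KO library, in the second the one with the GC trend, and takes its spread from the GFP control pair, so that they compare that library with the controls.

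*IDI1* was lower in both HCC366 *ADAR* KO libraries, at 9.62 and 3.23 CPM, than in GFP control, at 18.6 and 16.9 CPM. These levels rest on 11, 5, 24 and 59 reads, and the log2 fold change of −1.52 (SE 0.54, adjusted p = 0.20 from edgeR) did not pass, while a fit of all 20 libraries called it (−1.58, adjusted p = 0.0064 from edgeR). *DHCR7* was the other member lower without overlap, and 0 were higher, where 27.3% of all genes lay lower and 25.1% higher in that way. *IDI1* has the lowest GC content of the members. In ADAR sg2, low-GC genes were at a median log2 deviation of −0.98 from the other libraries of the line and high-GC genes at 0.77. With GC content and length offsets 0 of the 8 members passed in HCC366, and adding the replicate block to those offsets gave 2, *HMGCS1* higher (0.77) and *DHCR7* lower (−0.69).

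**Figure D5:**
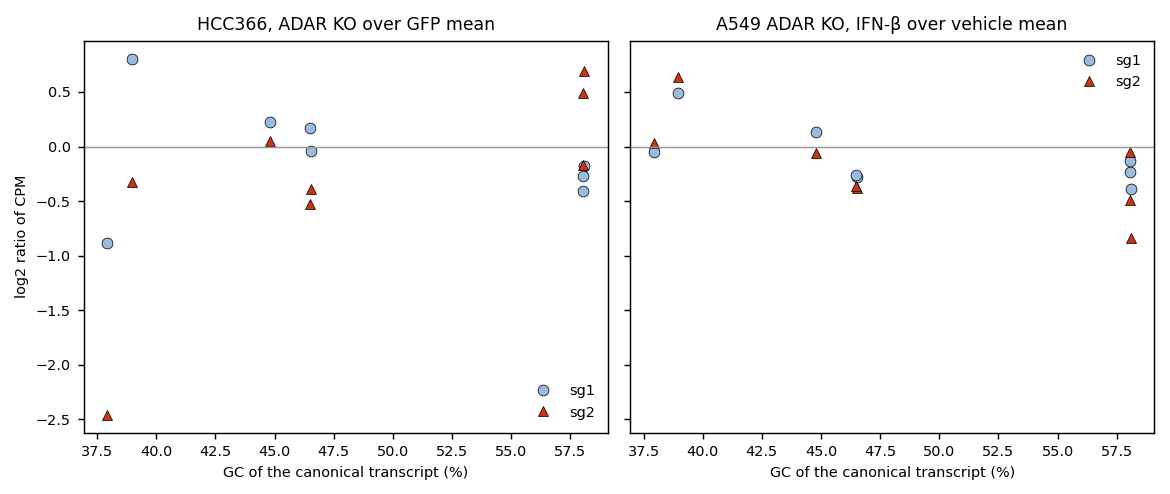
Log2 ratio of each *ADAR* KO library to the mean of its comparison group, against the GC content (%) of the canonical transcript, for the 8 genes in HCC366 (left, over GFP control) and in IFN-β-treated A549 (right, over vehicle), with circles for sg1 and triangles for sg2. In HCC366 sg2 the ratio runs from −2.46 for *IDI1* at 37.9% GC to 0.69 for *LSS* at 58.1% GC, and in A549 both sgRNAs place *HMGCS1* above 0 and *LSS* below.

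Across the 3 ADAR1-dependent lines, fitted together with the line as covariate, 0 of 8 members passed in edgeR, 0 had an unadjusted p under 0.05 and 0 passed in DESeq2. The background was 4.28% higher and 1.02% lower, and 3944 of all 16538 genes had an unadjusted p under 0.05. The estimates were 0.33 (SE 0.17) for *HMGCS1*, 0.30 (SE 0.19) for *INSIG1*, 0.29 (SE 0.16) for *SREBF2*, 0.24 (SE 0.16) for *LSS* and −0.43 (SE 0.21) for *IDI1*, with *SQLE*, *FDFT1* and *DHCR7* between −0.04 and 0.01. Without HCC366 ADAR sg2 and NCI-H196 GFP sg2, *HMGCS1* was called at 0.38 (adjusted p = 0.016 from edgeR), and with GC content and length offsets at 0.50 (adjusted p = 0.011 from edgeR). Set against the *ADAR* KO effect in vehicle-treated A549, the mean effect of the ADAR1-dependent lines passed the test of a difference for 0 of 8 members, and for 0 in DESeq2. There, 0.814% of genes were called higher and 0.138% lower. An unadjusted p under 0.05 in edgeR was found for 1 member (*IDI1*, −0.58, SE 0.26) and for 2690 of all 19523 genes. For *HMGCS1* that difference was 0.14 (SE 0.25). Without HCC366 ADAR sg1, *IDI1* passed (−0.95, adjusted p = 0.0075 from edgeR).

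The neighboring parts of sterol metabolism were described through lists drawn up by function, with earlier results of these data known. The 10 fatty acid synthesis genes, targets of the related factor SREBP-1, gave 0 higher and 6 lower with IFN-β in *ADAR* KO A549 (median −0.35), beside 15.5% and 9.04% of all genes, led by *FASN* (−0.59), the fatty acid synthase, *FADS1* (−0.43), a desaturase, and *SCD* (−0.41), which desaturates stearate. Leaving out the ADAR sg2 vehicle library left 2 of the 10 genes lower, leaving out ADAR sg2 with IFN-β left 3, leaving out ADAR sg1 vehicle left 4, and the offsets for GC content and length gave 8. With all 20 libraries in the fit 1 was lower. In GFP control A549 *FADS1* alone was lower (−0.37), a call kept in 8 of 12 alternatives. Of the 10 genes for SREBP processing and sterol sensing, 0 passed in GFP control cells and 1 was lower in *ADAR* KO cells. Of 9 genes for uptake, transport and storage of cholesterol, *STARD4*, a sterol carrier, and *LIPA*, the lysosomal lipase, were higher with IFN-β in GFP control A549 (1.94 and 0.79) and in *ADAR* KO A549 (2.36 and 0.76). *STARD4* stood at 2.11 and 3.12 CPM with vehicle and at 10.9 and 10.1 CPM with IFN-β in GFP control cells, with no overlap, and both of its calls were kept in 12 of 12 alternatives. *SCARB1*, a lipoprotein receptor, was lower with IFN-β in *ADAR* KO cells, a call lost with the block for each sgRNA and kept in 6 of 12 alternatives. Of the 9 genes on other branches of the mevalonate pathway, 0 passed in GFP control cells, and 2 were higher and 1 lower in *ADAR* KO cells. Counts of 1 or 2 genes in lists of 9 or 10 lie near the 15.5% higher and 9.04% lower of all genes in that comparison. Under IFN-β, *ADAR* KO A549 cells had more *RNF139* (0.59), a ubiquitin ligase, and *OSBP* (0.29), a sterol carrier, and less *FASN* (−0.44) and *PDSS1* (−0.52), an enzyme of ubiquinone synthesis, than GFP control cells, with 10.8% of all genes higher and 6.19% lower. Of 11 alternatives these calls were kept in 9, 2, 8 and 6. In NCI-H1650 *ACSS2*, which makes acetyl-CoA from acetate, was higher after *ADAR* KO (0.44), a call kept in 6 of 11. After *ADAR* KO in HCC366, 0 genes of any list passed, where 1.2% of all genes were higher and 0.0449% lower. In NCI-H196, 1 fatty acid gene was higher and 3 lower, as were 1 and 3 of the genes for uptake, transport and storage, beside 10.3% and 7.5% of all genes. Both pairs of counts were the same without GFP sg2, and became 0 in DESeq2, under the replicate block and without any other of the 4 libraries.

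A further list of 7 genes, drawn up in the same way, covered the oxysterol receptors LXR themselves and genes of the oxysterol response. Of the 7, 6 were tested in A549. *ABCA1*, which exports cholesterol, was higher with IFN-β in GFP control A549 (0.62) and in *ADAR* KO A549 (0.74), and higher in *ADAR* KO than in GFP control cells under IFN-β (0.48). It stood at 48.7 and 42.6 CPM with vehicle and at 75.2 and 65.0 CPM with IFN-β in GFP control cells. *ABCA1* was also higher after *ADAR* KO in NCI-H1650 (0.37), as were *ABCG1* (1.28), another exporter, and *MYLIP* (0.84), a ubiquitin ligase that lowers lipoprotein receptors. These are 3 of 7 genes, where 6.18% of all genes were higher. The *ABCA1* call was lost without either GFP library or without ADAR sg2 (adjusted p of 0.10 to 0.26 from edgeR). That of *ABCG1* was lost without GFP sg1 (1.19) or ADAR sg2 (0.80), and that of *MYLIP* was kept without each library in turn. All 3 were lost in the fit of all 20 libraries. *MYLIP* passed over the 3 ADAR1-dependent lines as well (1.01, SE 0.23, adjusted p = 0.015 from edgeR). It had 3 and 4 reads in HCC366 GFP control and 0 in NCI-H196 GFP sg2, and in NCI-H196 *MYLIP* (0.93), *ABCA1* (0.76) and *NR1H2* (0.48), which encodes an LXR, were the 3 of 5 tested genes of the list called higher, where 10.3% of all genes were. Without GFP sg2 *MYLIP* (0.90) and *ABCA1* (0.77) passed as well. Under the replicate block, in the fit of all 20 libraries and without GFP sg1 or ADAR sg2 neither passed, and *ABCA1* fell to 0.06 without GFP sg1 and was not called in DESeq2 (0.56) or without ADAR sg1 (0.68). The *MYLIP* call was kept in 5 of 10 alternatives and the *ABCA1* call in 4 of 11. In *ADAR* KO HCC366 *MYLIP* reached 4.37 and 10.3 CPM, against 2.32 and 1.15 CPM. In NCI-H1650 it was at 18.96 and 24.1 CPM in GFP control and at 32.5 and 44.8 CPM in *ADAR* KO, without overlap.

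*CH25H*, the hydroxylase that makes an oxysterol from cholesterol, had 0 reads in 7 of the 8 A549 libraries and 2 reads in ADAR sg2 with IFN-β, and was not tested there. In NCI-H1650 it was at 1.76 and 1.67 CPM in GFP control (8 and 7 reads) and at 5.39 and 11.3 CPM in *ADAR* KO (29 and 53 reads), a log2 fold change of 2.24 (SE 0.40, adjusted p = 6.35e-05 from edgeR). Both *ADAR* KO libraries exceeded both controls. Over the 3 ADAR1-dependent lines its change was 1.94 (SE 0.39, adjusted p = 0.0080 from edgeR), with 0 or 1 reads in each HCC366 library and with 12, 0, 1 and 42 reads in NCI-H196 GFP sg1, GFP sg2, ADAR sg1 and ADAR sg2. It did not pass without NCI-H1650 ADAR sg2 or without NCI-H196 ADAR sg2 (adjusted p of 0.0557 and 0.0535 from edgeR), under the replicate block by sgRNA number (1.67, adjusted p = 0.086 from edgeR) or with all 20 libraries in the fit (0.17, adjusted p = 0.97 from edgeR), and was 1.98 without the 2 libraries that stand apart.

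The genes whose pattern was most like that of the members were sought by the correlation of their log2 CPM, centred on the mean of each line, with the mean profile of the 8 members over the 20 libraries. Among 7748 genes with a mean of at least 10 CPM in each line, *IDH3G* (r = 0.98) was first, followed by *ISCU*, *TTC21B*, *GMCL1*, *ASS1*, *DCTPP1*, *MARS2*, *C1orf198*, *COG2* and *FLVCR1* (each r = 0.97). The members' mean profile was at −1.43 in NCI-H196 GFP sg2, the library of 62679 reads, and these likenesses rest on it. Over the 18 libraries that remain without it and HCC366 ADAR sg2, the first was *PDGFA* (r = 0.90), followed by *NADSYN1* (r = 0.83), and the former top 10 ranked from 52 to 3077. The points share lines, depth and base composition, and the values are a description.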

How the data were processed

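RNA-seq was performed on 20 libraries in 10 groups of 2 sgRNAs. Per the labels and the methods, ribosomal RNA was depleted, directional paired-end libraries were sequenced, and the authors used STAR for alignment (hg19) and HTSeq for gene-level counting. Versions, the annotation release and the strand setting are not given in the sources used here. The deposited values are raw counts for 58233 Ensembl identifiers, of which 55727 with a symbol carried 97.41% of counts. The 5 HTSeq summary lines were left out of library sizes.

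Groups came from the sample labels. Counts were fitted with edgeR 4.0.16 (R 4.3.3) by the quasi-likelihood test with TMM normalization and filterByExpr, with Benjamini-Hochberg adjustment over all genes tested and a threshold of 0.05. A549 (all 4 groups in one fit) and each other line were fitted separately. The interaction was a contrast of the A549 fit. The 3 dependent lines together were a separate fit of all their libraries, with cell line and sgRNA target as terms. Their difference from A549 was a contrast in a separate fit of all 20 libraries by group. Log2 fold changes used a prior count of 0.125. Each SE was derived as the absolute log2 fold change over the square root of the F statistic of its test, and is approximate. Alternatives were relative log expression size factors, DESeq2 1.42.0, no filter, replicate blocks, GC content and length offsets, one fit of all libraries and leaving out each library. The fits of A549, HCC366, NCI-H1650 and the 3 dependent lines together were run on simulated data, with changes larger than those of the members. Those runs do not show how well small changes are found. Neither NCI-H196 alone nor the difference from A549 was simulated. Gene counts per library ran from 62679 to 19520189, which limits the precision of low counts.

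The members and the 7 gene lists (62 genes) were chosen with earlier results of these data known. Some genes are not reported here. Named genes were the members, *ADAR*, interferon-stimulated controls, *CH25H*, list genes past the threshold in GFP control A549, in the interaction or after *ADAR* KO (at most 5 per list and comparison), and the 10 genes most like the members. List genes named for IFN-β in *ADAR* KO A549 were added after their values were seen, and most list genes called in NCI-H196 are given as counts. Vehicle and IFN-β libraries of A549 with the same sgRNA carry the same guide, and the block for each sgRNA pairs them, although their deviations from group means were not correlated (−0.059 in GFP control and −0.0048 in *ADAR* KO). Between GFP and *ADAR* libraries equal numbers name different guides, and the correlations ran from −0.25 (HCC366) to 0.037.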

Additional observations from a re-analysis of the deposited data

Results flagged for a closer look

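One result came from a test of a difference between effects. In vehicle-treated A549 *MYLIP*, the ubiquitin ligase of the LXR list, was low, at a mean of 3.74 CPM in GFP control and 2.80 CPM in *ADAR* KO, with overlap. With IFN-β it averaged 5.70 CPM in *ADAR* KO A549, where it was called higher than with vehicle. The *ADAR* KO effect on *MYLIP* was larger over the 3 ADAR1-dependent lines than in vehicle-treated A549, by 1.85 (SE 0.42, adjusted p = 0.024 from edgeR). It passed in 16 of 22 alternatives, with values from 1.47 to 4.98, the highest without NCI-H196 GFP sg1, where the remaining control library had 0 reads of the gene.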

How the results depend on the processing

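The count of members called depended on the setting in most comparisons. For IFN-β in GFP control A549 (1 member), it was 0 with relative log expression size factors, DESeq2, no filter, the replicate block by sgRNA number, the block for each sgRNA or all 20 libraries in one fit, 2 with GC content and length offsets with or without the block, and 0 to 1 when a library was left out. For IFN-β in *ADAR* KO A549 (5 members), it was 2 without the filter, 3 with the block for each sgRNA, 1 with all 20 libraries and 1 to 4 with a library left out. For *ADAR* KO under IFN-β (1), it was 2 with the replicate block and offsets, 0 with all 20 libraries and 0 to 2 with a library left out. In HCC366 (0), it was 2 with the replicate block and offsets, 1 with all 20 libraries and 0 to 4 with a library left out. In NCI-H1650 (1), it was 0 with all 20 libraries and 0 to 1 with a library left out. In NCI-H196 (3), it was 0 with DESeq2, with the replicate block, with the block and offsets and with all 20 libraries, and 0 to 3 with a library left out. Over the 3 dependent lines (0), it was 1 with offsets, with the block and offsets or, in an alternative chosen after seeing the data, without the 2 libraries that stand apart, 2 with all 20 libraries and 0 to 1 with a library left out. For the difference from A549 (0), it was 0 to 1 with a library left out. The interaction and the effect in vehicle-treated A549 gave 0 in every alternative run. *LSS* in NCI-H196 turned to −0.24 without GFP sg1, which leaves the shallow library as the control, and ran up to 0.52 with another library left out. Equal sgRNA numbers of GFP and *ADAR* libraries name different guides and are not known to pair them. The crossed block in HCC366, added after seeing the data, gave 0 members and 960 genes, against 139 genes without a block. Of the 19 sterol enzymes, the 9 lower with IFN-β in *ADAR* KO A549 became 5 without the filter, 3 with all 20 libraries and 1 to 7 with a library left out. Over all genes, one fit of all 20 libraries moved the calls from 880 to 531 and from 3788 to 2067 for IFN-β in GFP control and *ADAR* KO A549, from 780 to 164 for the interaction, from 19 to 5 and from 2622 to 1087 for *ADAR* KO with vehicle and IFN-β, from 2513 to 98 for NCI-H196, from 139 to 3701 for HCC366, from 1250 to 159 for NCI-H1650 and from 876 to 3148 over the dependent lines. DESeq2 gave 8 for *ADAR* KO with vehicle, 412 for NCI-H1650, 298 for HCC366 and 11 for NCI-H196. No filter gave 30 for *ADAR* KO with vehicle, 903 for HCC366, 1552 for NCI-H196, 1829 over the dependent lines and 111, against 186, for their difference from A549. The replicate block gave 300 in HCC366, 115 in NCI-H196, 362 over the dependent lines and 109 for the difference, and with offsets 1609, 28 and 359 for HCC366, NCI-H196 and the difference. Offsets alone gave 1634 in NCI-H196, and changed higher and lower calls from 629 and 151 to 711 and 331 for the interaction, from 134 and 5 to 733 and 328 in HCC366, from 707 and 169 to 1059 and 572 over the dependent lines and from 159 and 27 to 367 and 145 for the difference. Without the 2 libraries that stand apart, the last of these comparisons gave 554 calls and the dependent lines 1968. The cause of these changes was not tested.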
